A study of Mus musculus with 2 samples.

Results

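Mir10a, Mir10b, Mir196a-1, Mir196a-2, Mir196b and Mir615 are 6 miRNA genes that lie inside the 4 Hox clusters of the mouse genome. They were taken by name, through their Ensembl identifiers, and are 6 of 1973 miRNA genes counted in each library. Small RNA was sequenced from the hearts of newborn B6NCrl mice on postnatal day 0, with 1 library from each of 2 single hearts. Replicate 1 came from pup 2 and replicate 2 from pup 3, both of the litter of pregnant female 1, and sex was not collected. No genetic change or treatment is given in the labels, so the 2 hearts form 1 group and there was no comparison between conditions. Values are sense counts, the reads on the strand of the gene, and CPM, the count scaled to a total of 1000000 sense counts in its library. The spread is between 2 littermates and does not cover litters.

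Hox genes encode the transcription factors that give cells their position along the head-to-tail axis, and within a cluster they are ordered by the axial level at which they act. The miR-10 and miR-196 genes sit between or within Hox genes at matching places of different clusters, and both families are known to repress Hox mRNAs. miR-196a, for example, directs cleavage of the Hoxb8 mRNA, and in zebrafish miR-10 acts in endothelial cells during vessel sprouting. Mir615 lies in an intron of Hoxc5 and belongs to no family with the other members.

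The 5p mature sequences of the miR-10 and miR-196 genes are shown because they set both the family and how well the loci can be told apart; for Mir615 both arms are shown. Capitals mark the seed, bases 2 to 8 from the 5′ end, the stretch that pairs with a target mRNA. Sequences are from the RefSeq table on GRCm38.p6, in which all 6 genes had mature sequences.
mmu-miR-10a-5p: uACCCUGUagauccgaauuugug
mmu-miR-10b-5p: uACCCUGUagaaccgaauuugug
mmu-miR-196a-5p: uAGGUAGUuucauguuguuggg
mmu-miR-196b-5p: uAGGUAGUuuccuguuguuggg
mmu-miR-615-5p: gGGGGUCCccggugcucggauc
mmu-miR-615-3p: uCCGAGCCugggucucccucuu

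Mir10a and Mir10b shared the seed ACCCUGU, and no other mature sequence among 1679 in the table carried it. Counted from 1 at the 5′ end of miR-10a-5p, the pair differed by U12A over 23 nt. The miR-196 genes shared the seed AGGUAGU, also with no other gene. Mir196a-1 and Mir196a-2 made the same 22-nt 5p sequence, and from miR-196a-5p to miR-196b-5p the change was A12C. Neither seed of Mir615 occurred in any other gene of the table.

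The precursors of Mir196a-1 and Mir196a-2 are shown with the stretch they share in capitals, because it bears on the counts given below.
Mir196a-1: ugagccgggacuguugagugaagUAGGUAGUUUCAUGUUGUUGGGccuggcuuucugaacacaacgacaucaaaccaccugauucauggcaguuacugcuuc
Mir196a-2: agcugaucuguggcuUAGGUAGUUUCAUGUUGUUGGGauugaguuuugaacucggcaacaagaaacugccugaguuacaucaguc
The capitals are exactly the 22 nt of miR-196a-5p. A read of that whole sequence, or of a part of it, matches both loci equally, and the authors' tables give such multiply aligned reads only as a total, with no gene. The bases on either side of the stretch differ, and so do the 3p arms, which aligned at 14 matching positions with 7 mismatches and 2 gaps. Against 1893 other annotated miRNA precursors the longest stretch in common was 15 nt for Mir10a and Mir10b, which was with each other, 12 nt for Mir196b and 14 nt for Mir615. Positions outside annotated miRNA genes were not searched.

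Each gene lay on the same strand as the Hox genes around it (GENCODE M21, GRCm38). Mir10a (ENSMUSG00000065519, chr11:96317165-96317274, plus strand) overlapped no other annotated gene and stood 0.993 kb upstream of Hoxb4. Mir10b (ENSMUSG00000065500, chr2:74726070-74726137, plus strand) lay in introns of Hoxd4 and of a long transcript of Hoxd3. Mir196a-1 (ENSMUSG00000065546, chr11:96265164-96265265, plus strand) overlapped no gene and stood 6.19 kb upstream of Hoxb9. Mir196a-2 (ENSMUSG00000065488, chr15:102973350-102973434, plus strand) lay between Hoxc10 and Hoxc9, in an intron of a long Hoxc5 transcript. Mir196b (ENSMUSG00000065443, chr6:52230081-52230165, minus strand) stood 1.03 kb downstream of Hoxa10 and within Hoxa9, where it was exonic in 2 of 3 spanning transcripts and intronic in 1. Mir615 (ENSMUSG00000076010, chr15:103014910-103015001, plus strand) lay in introns of both Hoxc5 transcripts that span it. Mir196a-1 and Mir10a were 51.9 kb apart in HoxB, and Mir196a-2 and Mir615 were 41.5 kb apart in HoxC. The deposited identifiers of Mir10b and Mir196a-2 carried another version number than in GENCODE M21, so the ends of these 2 genes in the authors' annotation may differ from those given here.

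**Figure D1:**
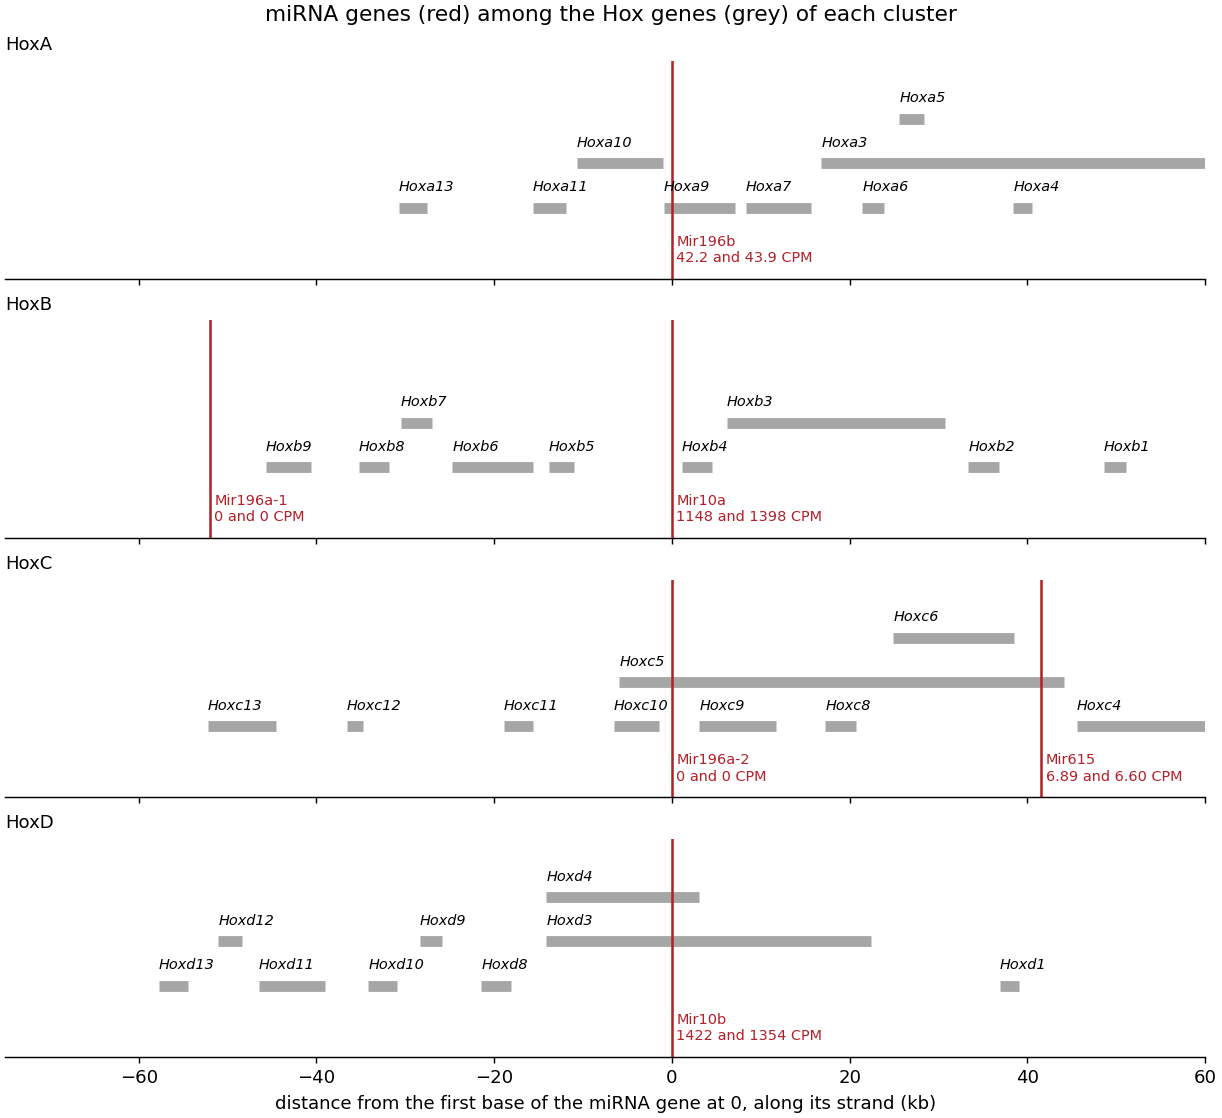
Hox genes (grey bars) of the 4 clusters by distance in kb from the first base of the miRNA gene at 0, along its strand, with miRNA genes as red lines and their CPM in replicate 1 and replicate 2. Mir10a and Mir10b, both beside a Hox4 gene, were above 1000 CPM in both hearts, and Mir196b, beside Hoxa9 and Hoxa10, was at 42.2 and 43.9 CPM; the 0 of Mir196a-1 and Mir196a-2 leaves out reads of the 5p arm they share.

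Replicate 1 held 2323450 sense counts on miRNA genes and replicate 2 held 3487183, so replicate 2 gave the tighter intervals. The miRNAs of heart muscle checked the tissue label. All 5 listed genes (Mir208a, Mir208b, Mir499, Mir1a-1 and Mir133a-1) were detected at 2 CPM or more, with sums of 90126 CPM (replicate 1) and 88947 CPM (replicate 2). Mir208a, Mir208b and Mir499 carried nearly all of that sum, while Mir1a-1, at 7.32 and 5.45 CPM, and Mir133a-1, at 8.61 and 7.17 CPM, were near the detection limit. Counts leave out reads that aligned to several places, so these low values need not be the levels of the mature miRNAs. Reads carried no molecular identifiers, so intervals and limits cover counting error only. Levels compare counts between genes, not molecules, since the read yield of a molecule can differ between miRNAs. In whole hearts, a lower level of a miRNA in each cell and fewer cells that contain it cannot be told apart.

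The miR-10 pair carried nearly all of the counts placed on the 6 members. These counts leave out reads of miR-196a-5p, which match 2 loci, so the shares below do not cover it. Mir10b was counted 3305 times in replicate 1 (1422 CPM) and 4723 times in replicate 2 (1354 CPM). Mir10a was counted 2667 times in replicate 1 (1148 CPM) and 4874 times in replicate 2 (1398 CPM). The mean was 1388 ± 48.1 CPM for Mir10b and 1273 ± 177 CPM for Mir10a (SD, n = 2), so the 2 genes did not differ beyond the spread between the hearts. They ranked 66 and 71 by mean level among the 1973 genes. All 6 members together held 0.262% of the sense counts in replicate 1 (exact Clopper-Pearson 95% interval 0.255% to 0.269%) and 0.280% in replicate 2 (0.275% to 0.286%). Mir10a and Mir10b made up 5972 of the 6086 counts on members in replicate 1 and 9597 of 9773 in replicate 2.

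Mir196b was present at a low and like level in both hearts. It had 98 counts in replicate 1, or 42.2 CPM with a Clopper-Pearson 95% interval of 34.2 to 51.4 CPM. In replicate 2 it had 153 counts, or 43.9 CPM with an interval of 37.2 to 51.4 CPM. Each interval holds the other heart's value. Mir10a exceeded it 27.2-fold in counts in replicate 1 and 31.9-fold in replicate 2, and Mir10b exceeded it 33.7-fold and 30.9-fold in the same order. Both gaps were far larger than the spread between hearts, with a log2 ratio of 4.88 ± 0.161 for Mir10a over Mir196b and 5.01 ± 0.0902 for Mir10b over Mir196b (SD, n = 2).

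Mir196a-1 and Mir196a-2 had 0 counts in both hearts. A count of 0 allows up to 3 counts, which is 1.29 CPM in replicate 1 and 0.860 CPM in replicate 2. This limit holds for reads that the authors could place at a single locus. Reads of the shared 5p arm have 2 matching loci, and they would fall among the 36.6% of reads in replicate 1 and 37.1% in replicate 2 that aligned to several places and are not resolved by gene. The level of miR-196a-5p is therefore unknown here. The 3p arms, miR-196a-1-3p and miR-196a-2-3p, occur whole in no other annotated miRNA precursor, and they too gave no counted read.

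Zero counts were the less common outcome among genes that, as the Mir196a loci, share some but not all of their mature sequences. Of 53 miRNA genes with some but not all of their mature sequences whole inside another precursor, 41 had a count in at least 1 heart and 12, the Mir196a loci included, had none. Of 44 genes whose every mature sequence was shared, 6 had a count. Of 819 genes with no shared mature sequence, 493 had a count. These shares are descriptions, added after the values were seen, and the genes within each class differ in how strongly they are expressed.

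Mir615 was the least abundant member with counts. It had 16 counts in replicate 1, or 6.89 CPM with a Clopper-Pearson 95% interval of 3.94 to 11.2 CPM. In replicate 2 it had 23 counts, or 6.60 CPM with an interval of 4.18 to 9.90 CPM. Mir196b lay 6.13-fold above it in replicate 1 and 6.65-fold in replicate 2, a log2 ratio of 2.67 ± 0.0842 (SD, n = 2). The tables do not separate the arms of a precursor, so which arm of Mir615 was read is not known. Reaching 2 CPM in both hearts were 4 of the 6 members, against 16.6% of all 1973 genes. On the opposite strand 6 of 6 members had 0 counts. Over all genes that is the common outcome, since only 628 of the 1973 genes had a count on either strand. How often a gene with sense counts has 0 on the opposite strand is not given here.

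**Figure D2:**
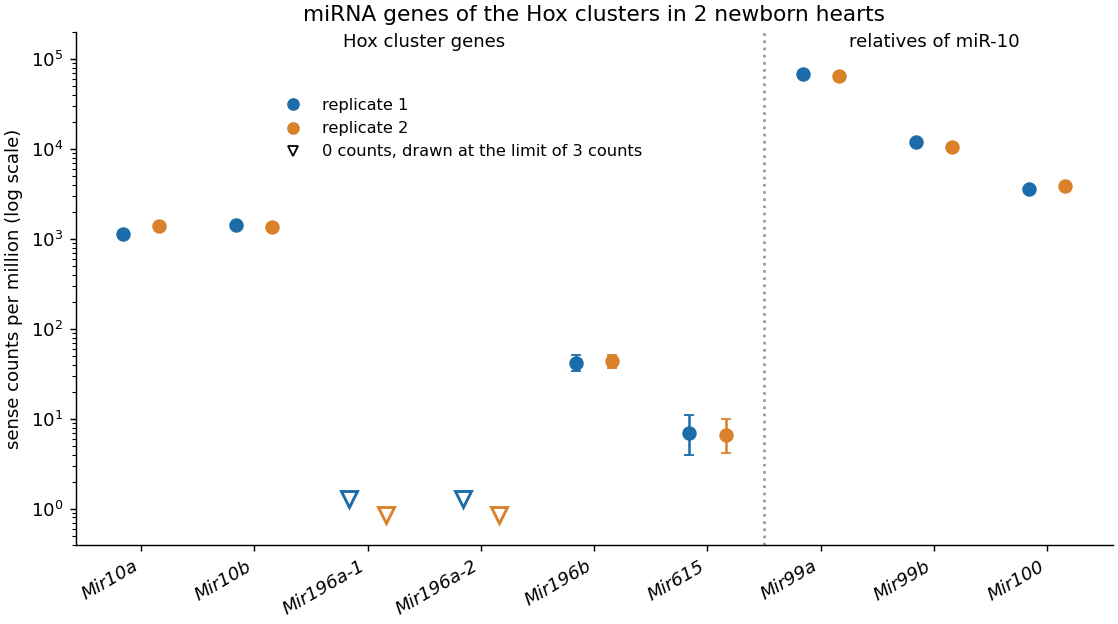
Sense CPM on a log axis of each Hox cluster miRNA gene and of the relatives of miR-10 in replicate 1 and replicate 2. Bars on the Hox cluster genes are exact 95% Clopper-Pearson intervals. Open triangles mark 0 counts at a fixed limit of 3 counts, which is not the end of such an interval. The order was Mir10b and Mir10a above 1000 CPM, Mir196b near 43 CPM and Mir615 near 7 CPM. The Mir196a loci were at 0 for reads placed at a single locus.

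The position of the genes in the clusters and their levels can be set side by side. Mir10a and Mir10b, at the matching place beside Hoxb4 and Hoxd4, were at like levels although they lie on different chromosomes. Of the miR-196 genes, which lie at the matching place beside Hox9 or Hox10 genes, Mir196b was near 43 CPM. The 0 counts of Mir196a-1 and Mir196a-2 cannot be read as levels, for the shared 5p arm given above, so position and level were not compared for them. Mir615, in Hoxc5, was near 7 CPM. Hox mRNAs were not measured in these libraries.

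**Figure D3:**
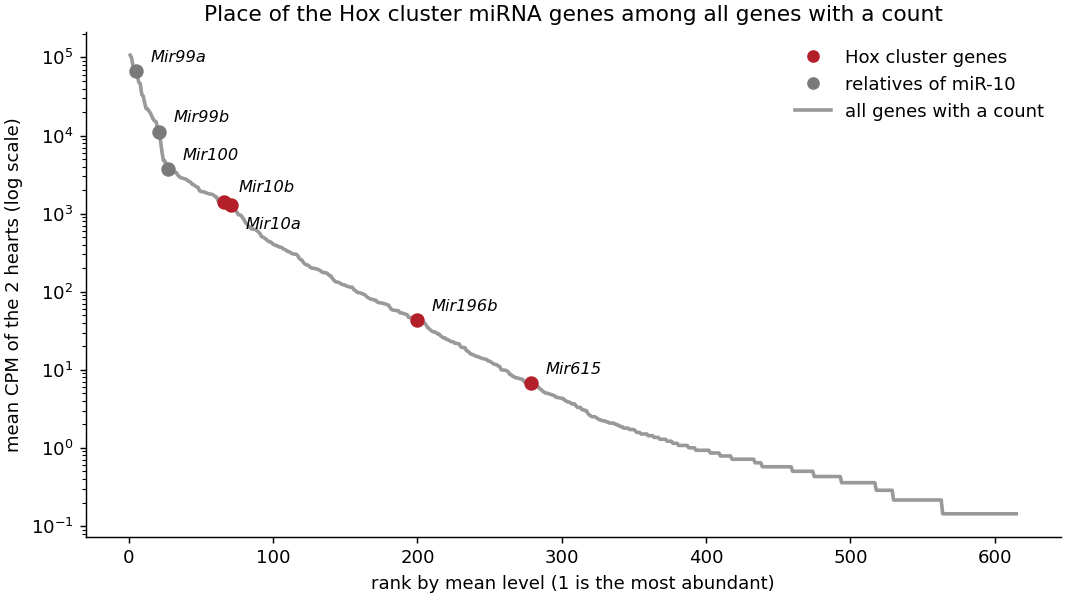
Mean CPM of the 2 hearts on a log axis against the rank of each gene with a count, with the Hox cluster genes in red and the relatives of miR-10 in grey. Mir10b ranked 66, Mir10a 71, Mir196b 200 and Mir615 279, and the relative Mir99a ranked 5.

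Between the hearts, Mir10a was the member with a called difference. It was lower in replicate 1, by a log2 ratio of replicate 1 over replicate 2 of -0.28 with 1 CPM added, or 1.22-fold higher in replicate 2 (adjusted p = 1.69e-13, exact two-sided binomial test with Benjamini-Hochberg adjustment over 615 genes). The test compares 2 libraries at counting error and carries no spread between animals. Mir10b was in the opposite direction, at a log2 ratio of 0.07 (adjusted p = 0.0547, same exact test). With genes of fewer than 10 counts left out of the test, Mir10b passed at an adjusted p of 0.0310 by the exact test. Mir196b, at -0.06, and Mir615, at 0.05, did not pass (adjusted p = 1 for each, exact test).

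The test called 1 of the 4 members with counts, in the direction of lower in replicate 1. Across all 615 genes tested it called 14.0%, with 8.94% lower and 5.04% higher in replicate 1. Calls depend on depth: it called 37.8% of the 193 genes averaging 50 CPM or more and 64.0% of the 75 averaging 1000 CPM or more, the class of Mir10a and Mir10b. The size of the Mir10a difference was exceeded by 2 of 25 other genes between 1000 and 2000 CPM, whose median absolute log2 ratio was 0.10, and by 28 of the 191 others averaging 50 CPM or more. The Mir10b difference was exceeded by 15 of the 25.

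**Figure D4:**
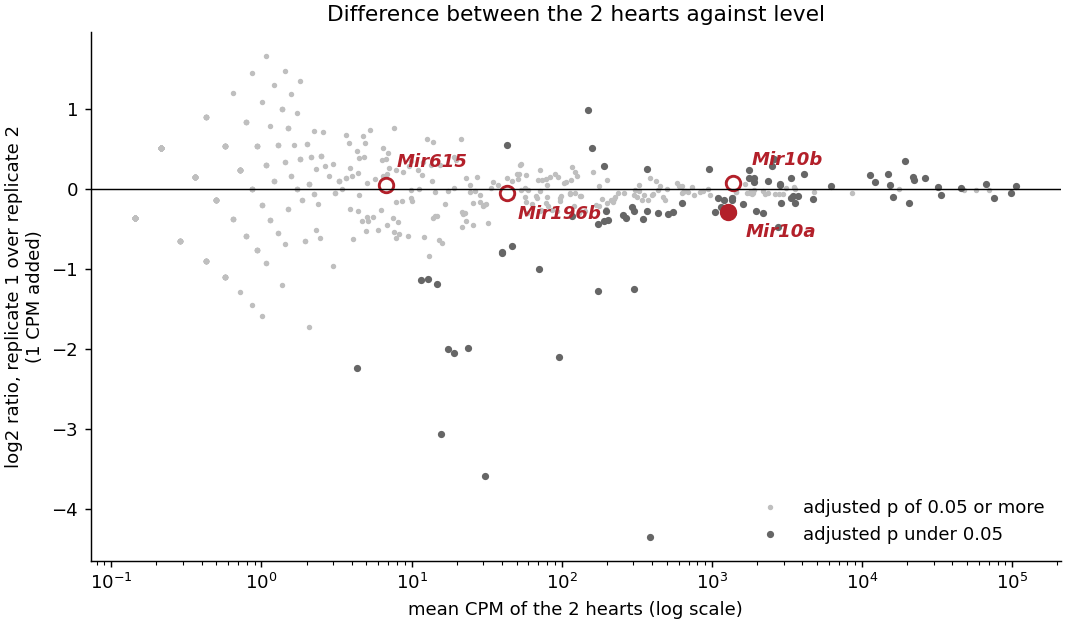
Log2 ratio of replicate 1 over replicate 2, with 1 CPM added, against mean CPM on a log axis for every gene with a count. Dark points passed the exact test at an adjusted p under 0.05; of the Hox cluster genes (red), Mir10a at -0.28 passed (filled) and Mir10b, Mir196b and Mir615 did not (open).

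Mir10b led the miR-10 pair in replicate 1, and in replicate 2 the pair was near even. Mir10a made up 44.7% of the counts of the pair in replicate 1 (exact Clopper-Pearson 95% interval 43.4% to 45.9%) and 50.8% in replicate 2 (49.8% to 51.8%). The intervals do not overlap, and that of replicate 2 includes an even split. The log2 ratio of Mir10a over Mir10b was -0.31 in replicate 1 and 0.05 in replicate 2, with a mean of -0.13 ± 0.251 (SD, n = 2). With 2 hearts this ratio has no test against animal-to-animal variation.

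Markers of other cells also differed between the libraries. The epithelial list (lung, gut and stratified), 11 genes all detected, reached 1174 CPM in all in replicate 1, against 1590 CPM in replicate 2. Of its 11 genes, 6 were called lower in replicate 1 and 0 higher by the exact test. Mir200a, at a log2 ratio of -0.64, and Mir203, at -0.21, were lower without a call. Mir192, at 0.11, Mir194-1, at 0.15, and Mir215, at 0.04, lay the other way and were not called. Mir215 alone held 637 CPM in replicate 1 and 619 CPM in replicate 2. The 3 genes of multiciliated cells, Mir449a, Mir34b and Mir34c, reached 221 CPM in replicate 1, against 1184 CPM in replicate 2, and all 3 were called lower in replicate 1. Single genes of other lists were called too. Mir144 of red blood cells, at a log2 ratio of 0.51, Mir208a of heart muscle, at 0.19, and the endothelial marker Mir126a, at 0.03, were higher in replicate 1. Mir143 of smooth muscle, at -0.06, was lower. The heart muscle list had no common direction. Its abundant genes Mir208b, at -0.01, and Mir499, at -0.03, lay slightly the other way from Mir208a and were not called. Mir1a-1, at 0.37, and Mir133a-1, at 0.23, both near the detection limit, were not called either. The 4 genes of fibroblasts and mesenchyme reached 1935 CPM in replicate 1, against 2033 CPM in replicate 2, with 0 called by the exact test and 1 of them, Mir199b, at an unadjusted p under 0.05. The part of these cells in the Mir10a difference was not tested.

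The miR-10 genes have relatives outside the Hox clusters, Mir99a, Mir99b and Mir100. They are set beside miR-10 to show how close the sequences are.
mmu-miR-99a-5p: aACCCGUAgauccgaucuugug
mmu-miR-99b-5p: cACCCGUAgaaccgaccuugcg
mmu-miR-100-5p: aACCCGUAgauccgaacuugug
Aligned to the 23-nt miR-10a-5p with 1 gap each, miR-100-5p matched at 20 positions, miR-99a-5p at 19 and miR-99b-5p at 17. The gap puts their seed, ACCCGUA, out of step with ACCCUGU of miR-10, so the families have different seeds. The sum of the 3 relatives exceeded that of Mir10a and Mir10b 32.6-fold in replicate 1 and 29.0-fold in replicate 2. Mir99a alone had 158762 and 227470 counts in the same order. In the test between the hearts Mir99a, at a log2 ratio of 0.07, and Mir99b, at 0.17, were called higher in replicate 1 and Mir100, at -0.08, lower, so no common direction ran through miR-10 and its relatives. Of the 5 counted neighbours of the relatives (Mir125a, Mir125b-1, Mir125b-2, Mirlet7c-1 and Mirlet7a-2), 1 was called higher and 1 lower in replicate 1.

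Genes whose levels in the 2 hearts lay closest to each member were found by the Euclidean distance of log2(CPM + 1) over the 2 samples. For Mir10a these were Mir369 (distance 0.152) and Mir296 (0.183), and for Mir10b they were Mir503 (0.0762) and Mir301 (0.106). For Mir196b they were Mir302d (0.0340), with 100 counts in replicate 1 and 151 in replicate 2, and Mir199a-2 (0.0438). For Mir615 they were Mir3057 (0.0947) and Mir7688 (0.113). With 2 samples the distance measures little more than a like level.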

How the data were processed

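The authors deposited raw whole-number counts for each miRNA gene, in columns for the sense strand, the opposite strand and their sum. Per the labels, total RNA with inserts under 30 nt was used and reads were placed on mm10, and the deposited description names GENCODE M4. The aligner, counter and multiple-alignment settings are not given in the sources used here. In replicate 1, 11.5% of reads were unmapped, 36.6% aligned to several places and 5.93% lay on no feature, and in replicate 2 these were 10.5%, 37.1% and 5.62%. These rows name no gene and entered neither library sizes nor tests.

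Sense counts were used. Symbols and positions came from GENCODE M21, which matched 1894 of 1973 identifiers; the 79 others had 0 counts. Mature sequences and precursors are from RefSeq; stretches shared between precursors were sought in GENCODE M21. Of the cell type markers Mir142 and Mir9-1, and of the neighbours of the relatives Mirlet7e, were not analysed here. For each gene the hearts were compared with an exact binomial test, two-sided (scipy 1.17.1), on TMM-scaled library sizes (edgeR 4.0.16), over genes with at least 1 count, with Benjamini-Hochberg adjustment at 0.05. edgeR's quasi-likelihood test needs replicates on each side and was not used. DESeq2 1.42.0 gave alternative size factors. On simulated data of 587 genes, the exact test called 97.1% of 34 genes changed 1.5-fold and 0% of 126 unchanged genes, each with a mean of at least 50 CPM. Over all levels it called 39.4% of 94 genes changed 1.5-fold and 50% of 100 changed 3-fold. Differences of genes below 50 CPM, as Mir196b and Mir615 are, can therefore be missed. Since the test carries no spread between animals, the simulated 0% is not a false call rate for the hearts. Between the hearts, 37.8% of 193 genes above that level were called, and how many of those calls are false was not tested.

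The named genes are the 6 members, the miR-99/100 relatives, the 2 genes nearest in level to each detected member, genes that overlap a member, and marker genes where they stand beside a result. The members and lists were chosen with earlier results of these data known. Alternatives covered strand, denominator, detection limit, scaling, pseudocount, a filter on low counts and leaving out each heart.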

Additional observations from a re-analysis of the deposited data

How the results depend on the processing

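The summed share of the 6 members, 0.271% ± 0.0130 (SD, n = 2) of sense counts, was 0.253% with counts of both strands and 0.126% with all reads as the denominator, both of which enlarge the denominator only. Without 1 heart it ranged from 0.262% to 0.280%. The number of members detected in both hearts was 4 at limits of 1 and 5 CPM and with both strands, and 3 at 10 CPM, where Mir615 dropped out. Genes called between the libraries numbered 86, against 92 with total counts, 90 with DESeq2 size factors, 97 with genes of 10 or more counts and 91 with both strands. Mir10a kept its direction and its call under 7 of 7 alternatives, with log2 ratios of -0.28 to -0.27 and adjusted p at most 1.69e-13 by the exact test. Pseudocounts and the scaling of the ratio do not enter that test, and both strands leave the counts of Mir10a unchanged. Those settings therefore check its call little. Mir10b stayed between 0.07 and 0.09, with adjusted p from 0.0310 to 0.173 by the exact test. The log2 ratio of Mir10a over Mir10b, -0.13, could not change with both strands, since neither gene had counts on the opposite strand. Leaving out 1 heart gave -0.31 to 0.05, so the sign of this ratio rests on which heart is kept. No paired analysis was possible because the series has a single group. Depth limits Mir615, which has 16 and 23 counts.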
